A study of Homo sapiens with 9 samples.

Results

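The cytosolic ribosomal protein genes encode the protein parts of the ribosomes that translate nuclear mRNAs. They were taken by symbol: every gene whose whole symbol is RPL or RPS and a number, with an optional A, L or X ending, together with RPLP0, RPLP1, RPLP2, RPSA and FAU, leaving out numbered pseudogenes, RPS27L and the RPS6K kinases. The rule found 83 genes among the 57736 genes listed, 49 of the large (60S) subunit and 34 of the small (40S) subunit. RNA was measured in SKMEL-147, an established human melanoma cell line, to ask which transcripts change when PHF8 is disrupted. PHF8, plant homeodomain finger protein 8, is a Jumonji-type histone demethylase that removes methyl groups from histones H3 and H4. All 3 groups carried stable Cas9 under blasticidin selection and a lentiviral guide vector with GFP, and differed in the guide: sgScr, a scrambled control, sgPHF8-1 or sgPHF8-3, the latter pair directed at PHF8. Each group had 3 libraries (A, B and C), described in the study's methods as biological replicates. The cells were transduced pools and not single clones, so cells with different edits, or none, were measured together.

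Each ribosome holds 1 copy of nearly every one of these proteins, and the cell makes them in matched amounts. Their mRNAs are short, abundant and long-lived. Most begin with a terminal oligopyrimidine (TOP) tract, a C at the first transcribed base followed by a run of C and T, through which mTORC1 and the RNA-binding protein LARP1 control their translation and stability. Unassembled RPL5 and RPL11 bind the p53 regulator MDM2, which ties ribosome assembly to p53. Loss of 1 copy of genes such as RPS19 underlies Diamond-Blackfan anemia.

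The transcription starts of 6 genes are shown because these genes mark the range of responses described later: RPL12 and RPS12 were among the highest with both guides, RPLP0 is a common reference gene, RPS28 rose with sgPHF8-1, RPL7A was called higher with sgPHF8-3 alone, and RPS16 was called lower with sgPHF8-3. Each line gives 30 bases before the annotated start and the first 20 transcribed bases, from RefSeq on GRCh38.p14, read 5′ to 3′ on the gene's strand, with the TOP tract in capitals.
RPL12: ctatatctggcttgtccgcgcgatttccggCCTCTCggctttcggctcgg
RPS12: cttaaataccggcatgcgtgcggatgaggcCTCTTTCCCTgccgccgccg
RPLP0: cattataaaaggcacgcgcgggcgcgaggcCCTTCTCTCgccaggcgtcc
RPS28: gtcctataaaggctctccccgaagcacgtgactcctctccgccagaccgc
RPL7A: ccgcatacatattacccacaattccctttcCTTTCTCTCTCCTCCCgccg
RPS16: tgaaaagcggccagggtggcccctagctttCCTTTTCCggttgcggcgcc
The windows lie at chr9:127451387-127451436 (minus strand) for RPL12, chr6:132814539-132814588 (plus) for RPS12, chr12:120201092-120201141 (minus) for RPLP0, chr19:8321466-8321515 (plus) for RPS28, chr9:133348188-133348237 (plus) for RPL7A and chr19:39435930-39435979 (minus) for RPS16. The tract ran for 6 bases in RPL12, 10 in RPS12, 9 in RPLP0, 16 in RPL7A and 8 in RPS16. At the annotated start of RPS28 there was no such tract, since the first transcribed base is A.

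A tract was counted where the first transcribed base is C and at least 5 bases from it are C or T, on the transcribed strand. Of the 83 members 64 had a start in the RefSeq table and 47 of those (73.4%) had a tract at 1 or more starts, against 1404 of all 27305 genes in the table (5.14%). By start, 47 of 79 member starts (59.5%) and 1429 of 35116 of all starts (4.07%) had one. This describes the annotated starts and not those used in SKMEL-147 cells.

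Library totals ran from 17366120 to 19838142 counts, and 14614 genes passed the low count filter. PHF8 had normalized counts of 655, 606 and 634 with sgScr, 564, 571 and 565 with sgPHF8-1, and 400, 387 and 434 with sgPHF8-3, a log2 fold change of -0.16 (SE 0.0536; adjusted p = 0.0272, edgeR) and of -0.63 (SE 0.0566; adjusted p = 6.36e-09, edgeR). The sgPHF8-1 call was lost with DESeq2 and without sgScr replicate A or C or sgPHF8-1 replicate A or C. An edited gene can still be transcribed, so the mRNA is only a partial check of the guides. By Western blot, the study reported efficient loss of PHF8 protein in SKMEL-147 with both guides. Of 8 melanocyte lineage markers SOX10 and MITF passed the filter, MLANA and TYR were at 0 in all 9 libraries, and PMEL, TYRP1, DCT and S100B had at most 11.2 normalized counts. The melanocyte markers summed to 161 to 168 CPM (counts scaled to a common library total) with sgScr, 141 to 145 with sgPHF8-1 and 151 to 157 with sgPHF8-3. The blood markers summed to at most 0.706 CPM, those of endothelium to at most 0.498, those of fibroblasts to between 16.7 and 23.1, and those of keratinocytes to between 18.1 and 20.1. Among these markers SOX10 fell by 0.18 and 0.11 on the log2 scale with sgPHF8-1 and sgPHF8-3 (adjusted p = 7.9e-05 and 0.0123, edgeR), KRT14 fell with both guides, from at least 37.2 normalized counts in each sgScr library to at most 28.7 in the others (adjusted p = 0.00129 and 0.0092), and LUM fell by 0.25 with sgPHF8-3 (adjusted p = 0.0216). DESeq2 did not call KRT14 or LUM with sgPHF8-3. Between the guides, sgPHF8-1 minus sgPHF8-3, the log2 difference was -0.28 in MITF and 0.29 in LUM (adjusted p = 0.0306 and 0.0125, edgeR), and DESeq2 called neither. Their part in the results on the members was not tested. Differences between libraries of a group, as a chi-square per degree of freedom over genes, were 1.31 to 1.55 with sgScr, 2.93 and 3.87 for the pairs that include sgPHF8-1 replicate B, and 2.06 and 3.01 for the pairs that include sgPHF8-3 replicate C, against 1.57 and 1.78 for the remaining pairs. Replicate B of sgPHF8-1 and replicate C of sgPHF8-3 thus stood furthest from their groups, and the counts, medians and share of the members are also given without both, with values for some of the named genes.

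Of the 83 members 78 passed the filter, 47 of the 60S and 31 of the 40S subunit. The 5 that did not had at most 9 reads summed over all libraries, among them RPS10L with 9, RPL3L with 4 and RPL10L with 0. RPL3L, RPL10L and RPL39L are the tissue-restricted paralogs of RPL3, RPL10 and RPL39, and of the paralogs RPL39L alone passed the filter. RPL17, RPS10 and RPL36A overlap readthrough genes on the same strand (RPL17-C18orf32, RPS10-NUDT3 and RPL36A-HNRNPH2), which were listed at 0 counts in all 9 libraries. How reads in the shared parts were counted was not tested, so the counts of these members are uncertain.

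The share of all gene counts that fell on the 83 genes was higher with either PHF8 guide. It was 5.39%, 5.37% and 5.32% in the sgScr libraries (mean 5.36% ± 0.0347 SD, n = 3), 5.79%, 6.06% and 5.72% with sgPHF8-1 (5.86% ± 0.181), and 5.75%, 5.64% and 5.45% with sgPHF8-3 (5.61% ± 0.151). No library of either PHF8 guide overlapped the sgScr libraries, whereas the ranges of both guides overlapped each other. The 95% Wilson interval of a single library extended at most 0.0112 percentage points to either side and covers counting error only. The 60S genes took 3.23%, 3.53% and 3.39% on average with sgScr, sgPHF8-1 and sgPHF8-3, and the 40S genes took 2.13%, 2.33% and 2.22%. The mean of all 83 was 1.09 times that of sgScr with sgPHF8-1 and 1.05 times with sgPHF8-3. A share of counts is relative to the other genes. In bulk RNA, more RNA per cell and more cells with a high level cannot be told apart.

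**Figure D1:**
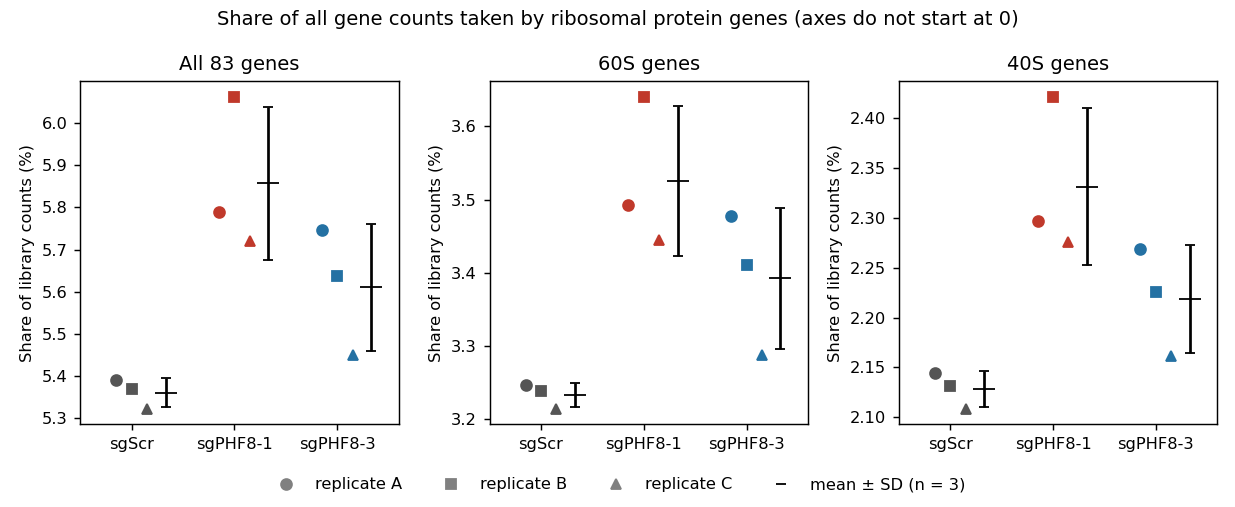
Share of all gene counts (%, vertical axes, which do not start at 0) taken by the 83 ribosomal protein genes, the 60S genes and the 40S genes in each library, by guide; points are libraries and bars the mean ± SD of 3. All sgScr libraries sit between 5.32% and 5.39%, under all 6 libraries of the PHF8 guides.

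The shift was spread over nearly all members and differed in size between libraries. Relative to each member's sgScr mean, the median log2 difference over the 78 members was 0.13, 0.22 and 0.10 in sgPHF8-1 replicates A, B and C, and 0.10, 0.08 and 0.02 in sgPHF8-3 replicates A, B and C. The sgScr libraries had medians from -0.01 to 0.01. Of the 78 members 75, 77 and 73 were above the sgScr mean in the sgPHF8-1 libraries, and 74, 70 and 46 in the sgPHF8-3 libraries. The libraries that stood apart across all genes were thus also the ones with the largest and the smallest member shift, and they held the lowest and the highest scaling factor (0.980 and 1.01), whose part in the shift was not tested. Replicates A and C of sgPHF8-1 and replicates A and B of sgPHF8-3 lay between 0.08 and 0.13.

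**Figure D2:**
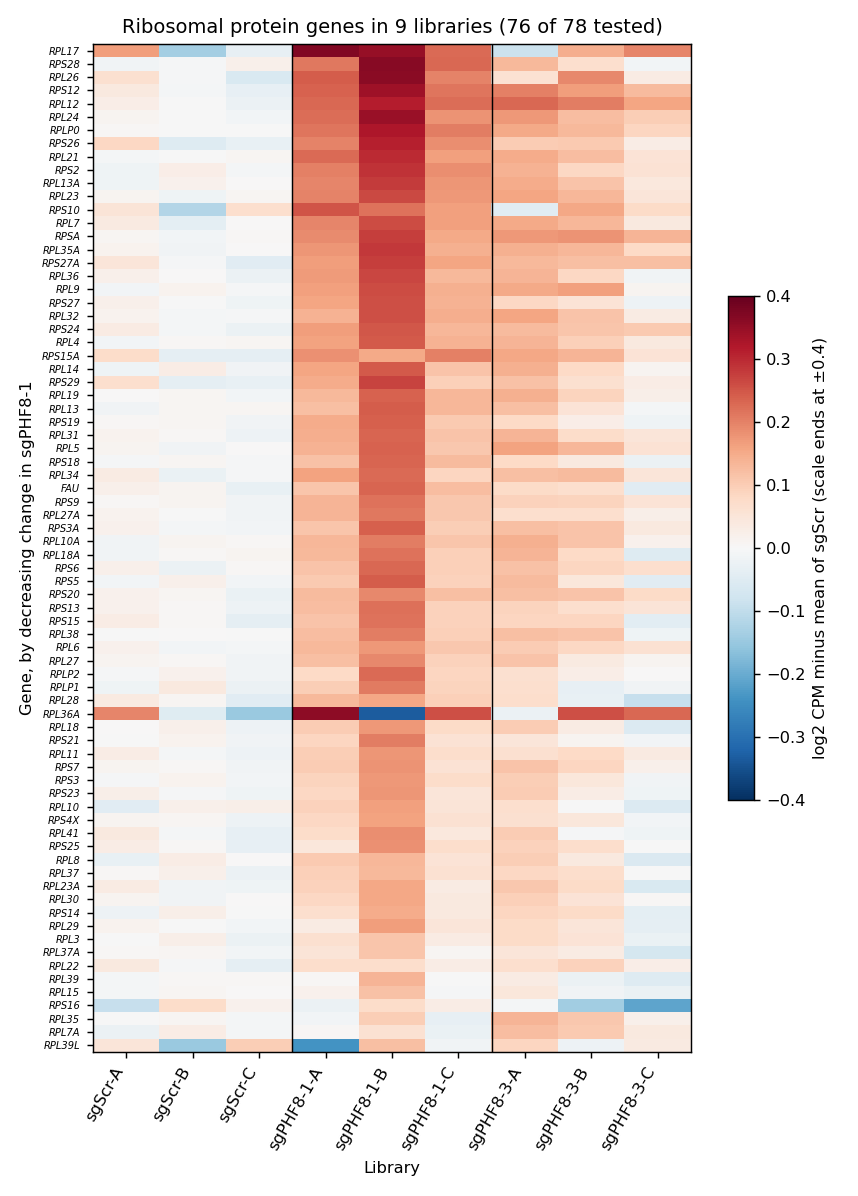
Log2 CPM minus the mean of the sgScr libraries (colour, ends at ±0.4) for genes tested (76 of 78 are drawn; vertical axis, by decreasing change with sgPHF8-1) in the 9 libraries (horizontal axis). The column of sgPHF8-1 replicate B is the darkest red, with a median of 0.22, and that of sgPHF8-3 replicate C is near white, with 0.02.

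With sgPHF8-1, 64 of the 78 members were higher than with sgScr at an adjusted p under 0.05 and 0 were lower (edgeR quasi-likelihood test, adjusted over all genes tested). Over all genes tested 15.2% were called higher and 15.7% lower. At an unadjusted p under 0.05, 69 members were higher and 0 lower, and 62 and 64 were called higher, and 0 lower, by DESeq2 and limma. The changes were small: the median log2 fold change was 0.15, or 10.9%, with a range of -0.04 to 0.31, and the median over all genes was 0.00. In 67 members all 3 sgPHF8-1 libraries were above all 3 sgScr libraries, against 21.1% of all genes. Of the 60S genes 36 of 47 were called higher (median 0.14) and of the 40S genes 28 of 31 (median 0.15). The 47 members with a TOP tract held 38 of the calls, with a median of 0.15. The study's methods give a threshold of an unadjusted p under 0.05 and an absolute log2 fold change over 0.25. At that threshold 6 members were called higher, and 5.6% of all genes. The study's results used other cutoffs, which were not applied here. Without the pair of libraries that stood apart, 63 members were called higher (14.6% of all genes) with a median of 0.12.

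With sgPHF8-3, 25 members were higher than with sgScr and 1 was lower, where 9.48% of all genes were called higher and 9.78% lower (edgeR). The median over the members was 0.07, or 4.89%, with a range of -0.12 to 0.20, and 75 of 78 fold changes were positive. All 3 libraries were above the sgScr libraries in 31 members, against 18.7% of all genes. Called higher were 16 of 47 60S genes (median 0.07) and 9 of 31 40S genes (median 0.06). Of the 47 members with a TOP tract 13 were called higher and 1 lower (median 0.06). The count rested on single libraries. It was 8 without sgScr replicate B or C (10.3% of members, against 6.01% and 6.47% of all genes), 13 without sgScr replicate A (16.7% against 6.28%), 7 without sgPHF8-3 replicate A or B (8.97% against 6.63% and 6.08%), and 34 without sgPHF8-3 replicate C (43.6% against 8.05%). The shares of 8.97% and 10.3% lay near those of all genes. Without both libraries that stood apart it was 61, with 0 lower and a median of 0.09, and 11.4% of all genes were then called higher.

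Both comparisons use the same sgScr libraries, so their calls are not independent and their overlap is not given as a result. Members called higher with neither guide included RPL3, RPL15, RPL22, RPL23A, RPL29, RPL35, RPL36A, RPL37A, RPL39, RPL39L, RPS14 and RPS16, several of them named here after their values were seen.

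**Figure D3:**
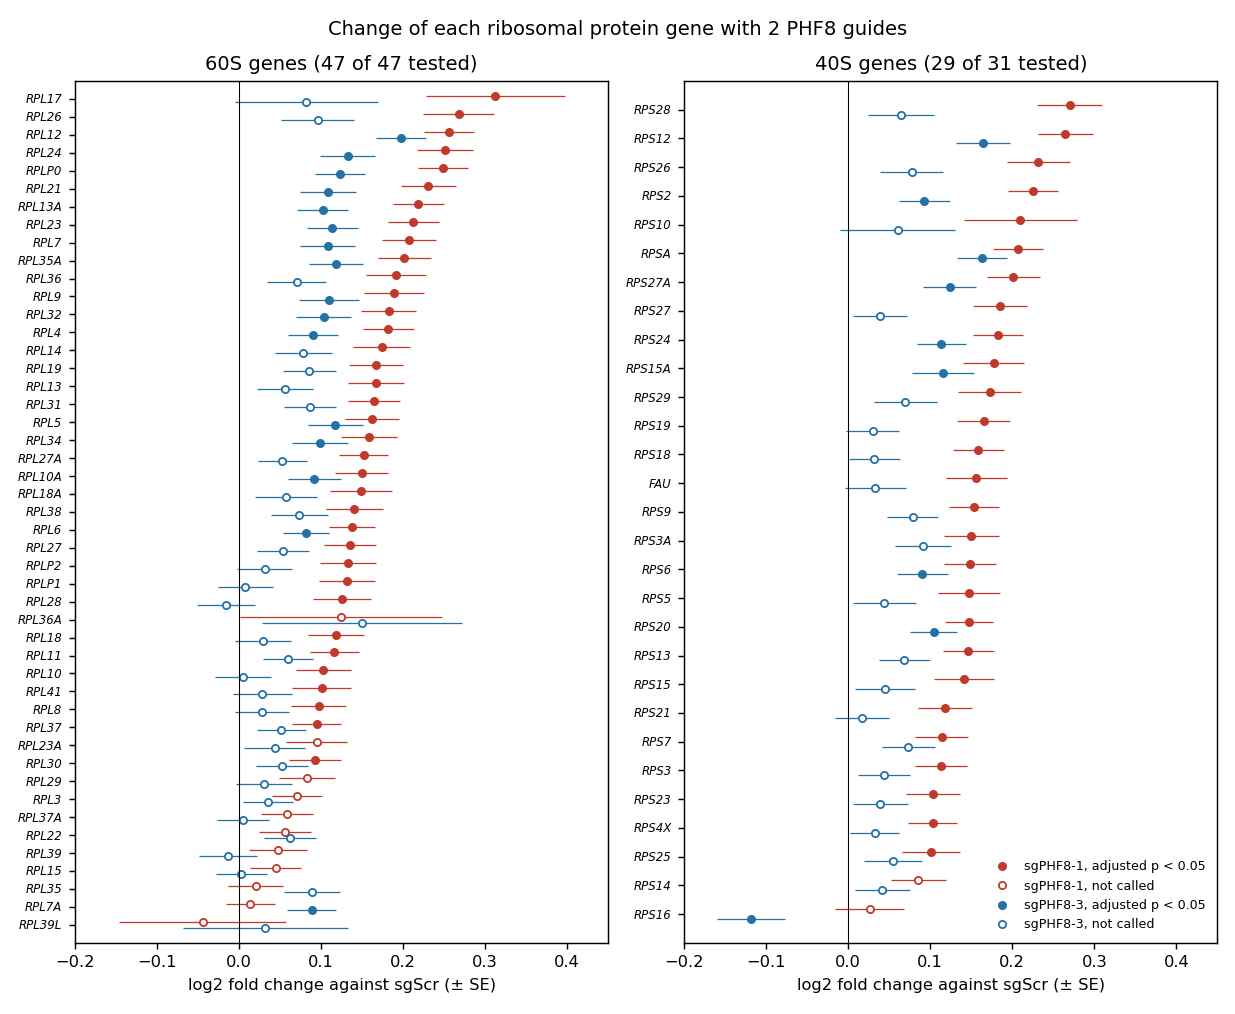
Log2 fold change against sgScr (horizontal axis, ± SE) of 76 of the 78 genes tested, in sgPHF8-1 (red) and sgPHF8-3 (blue), with 60S genes on the left and 40S genes on the right; filled points passed an adjusted p of 0.05. Nearly all red points lie to the right of 0 around 0.15 and the blue points around 0.07, with RPS16 at -0.12 in sgPHF8-3.

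RPL12, a 60S protein of the stalk base (chr9:130209953-130213685 on the minus strand, GRCh37), rose with both guides. Its normalized counts were 13633, 13334 and 13127 with sgScr, 15640, 16706 and 15561 with sgPHF8-1, and 15673, 15416 and 14893 with sgPHF8-3. All 6 libraries of the PHF8 guides were above the sgScr libraries, and both guides overlapped. The log2 fold change was 0.26 (SE 0.0305; adjusted p = 2.95e-07, edgeR) with sgPHF8-1 and 0.20 (SE 0.0305; adjusted p = 3.50e-05) with sgPHF8-3, and the guides differed by 0.06 (adjusted p = 0.241).

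RPS12 is a small 40S protein whose gene (chr6:133135708-133138703, plus strand, GRCh37) holds 3 snoRNA genes. It had 8564, 8281 and 8136 normalized counts with sgScr, 9793, 10585 and 9644 with sgPHF8-1, and 9583, 9344 and 9075 with sgPHF8-3. The groups did not overlap, in the order sgScr, sgPHF8-3 and sgPHF8-1. The log2 fold change was 0.26 (SE 0.0331; adjusted p = 6.88e-07, edgeR) and 0.16 (SE 0.0332; adjusted p = 0.000791), and the difference between the guides, 0.10, did not pass (adjusted p = 0.0515).

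The stalk of the 60S subunit recruits the translation factors and is built from RPLP0, RPLP1 and RPLP2. RPLP0 (chr12:120634502-120639038, minus strand, GRCh37) had 32294, 32146 and 32121 normalized counts with sgScr, 37284, 40472 and 37021 with sgPHF8-1, and 35805, 35223 and 34118 with sgPHF8-3. Its sgScr libraries spanned a narrow range, and the 3 groups did not overlap. It rose by 18.8% with sgPHF8-1 (log2 fold change 0.25, SE 0.0304; adjusted p = 4.70e-07, edgeR) and by 8.87% with sgPHF8-3 (0.12, SE 0.0304; adjusted p = 0.00518). RPLP1 and RPLP2 rose with sgPHF8-1 by 0.13 each (adjusted p = 0.00365 and 0.00343), and had fold changes of 0.01 and 0.03 with sgPHF8-3 (adjusted p = 0.908 and 0.571).

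Some members also act outside the ribosome or are made as fusions. RPSA, which also occurs as a laminin receptor, had 16864, 16636 and 16806 normalized counts with sgScr, 19092, 20397 and 18577 with sgPHF8-1, and 18919, 19011 and 18387 with sgPHF8-3. Its log2 fold changes were 0.21 (SE 0.0304; adjusted p = 7.65e-06, edgeR) and 0.16 (SE 0.0304; adjusted p = 0.000359), and the guides overlapped. RPS27A, made as a fusion with ubiquitin, rose by 0.20 and 0.12 (adjusted p = 2.38e-05 and 0.00733). FAU, whose product carries a ubiquitin-like part, rose by 0.16 with sgPHF8-1 (adjusted p = 0.00189) and had a fold change of 0.03 with sgPHF8-3 (adjusted p = 0.589).

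RPL5 and RPL11, the proteins of the 5S particle that can bind MDM2, rose with sgPHF8-1 by 0.16 and 0.12 (adjusted p = 0.000453 and 0.00395, edgeR). With sgPHF8-3 RPL5 rose by 0.12 (adjusted p = 0.0132), and RPL11 had a fold change of 0.06 (adjusted p = 0.173). RPS6, the substrate of the S6 kinases, rose by 0.15 and 0.09 (adjusted p = 0.000600 and 0.0424). RPS19, the first gene tied to Diamond-Blackfan anemia, had 21384, 21419 and 21073 normalized counts with sgScr, 23572, 25250 and 22828 with sgPHF8-1, and 22532, 21677 and 21023 with sgPHF8-3. It was above sgScr in each sgPHF8-1 library and overlapped sgScr with sgPHF8-3, with log2 fold changes of 0.17 (SE 0.0322; adjusted p = 0.000266) and 0.03 (SE 0.0323; adjusted p = 0.567). Of the 4 tested members on the X chromosome, RPL39 and RPL36A were not called with either guide. The other two, RPL10 and RPS4X, rose by 0.10 each with sgPHF8-1 (adjusted p = 0.0207 and 0.0104) and had 0.00 and 0.03 with sgPHF8-3 (adjusted p = 0.946 and 0.505).

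RPL4, RPS18 and RPLP0 had the most counts of the members. RPL4, a 60S core protein, rose by 0.18 with sgPHF8-1 and 0.09 with sgPHF8-3 (adjusted p = 4.58e-05 and 0.0385, edgeR). RPS18, in the head of the 40S subunit, rose by 0.16 with sgPHF8-1 (adjusted p = 0.000330) and had 0.03 with sgPHF8-3 (adjusted p = 0.531). Without these genes the other 80 took 4.81%, 5.23% and 5.03% of counts on average with sgScr, sgPHF8-1 and sgPHF8-3. The shift in the share was thus present without the most counted genes. RPL3, which lies at the peptidyl transferase center, had fold changes of 0.07 and 0.04 (adjusted p = 0.0834 and 0.464), and RPL39, in the exit tunnel, 0.05 and -0.01 (adjusted p = 0.337 and 0.841).

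The largest fold changes with sgPHF8-1 were those of RPL17, RPS28, RPL26, RPS12, RPL12, RPL24, RPLP0, RPS26, RPL21 and RPS2, from 0.31 down to 0.23. RPL17, among the least counted members, had 290, 234 and 252 normalized counts with sgScr, 333, 330 and 301 with sgPHF8-1, and 243, 285 and 295 with sgPHF8-3. Its sgPHF8-1 libraries were above the sgScr libraries and its sgPHF8-3 libraries overlapped them. Its change with sgPHF8-1 was 0.31 (SE 0.0845; adjusted p = 0.00575, edgeR), and 0.25 without sgScr replicate B, where it no longer passed. RPL24, a 60S protein at the bridge to the 40S subunit, had 11317, 11197 and 11128 with sgScr, 13063, 14306 and 12683 with sgPHF8-1, and 12651, 12230 and 11995 with sgPHF8-3, and rose by 0.25 and 0.13 (adjusted p = 2.26e-06 and 0.00685). The other 2 of the least counted, RPL36A and RPL39L, had fold changes of 0.12 and -0.04 with sgPHF8-1 (SE 0.123 and 0.102) and of 0.15 and 0.03 with sgPHF8-3 (SE 0.122 and 0.1), where the median SE over the members was 0.0333. The value of RPL36A with sgPHF8-1 depended on single libraries: it was -0.01 without sgPHF8-1 replicate A and 0.30 without sgPHF8-1 replicate B, and without both libraries that stood apart it was 0.30 and passed (adjusted p = 0.0115, edgeR).

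**Figure D4:**
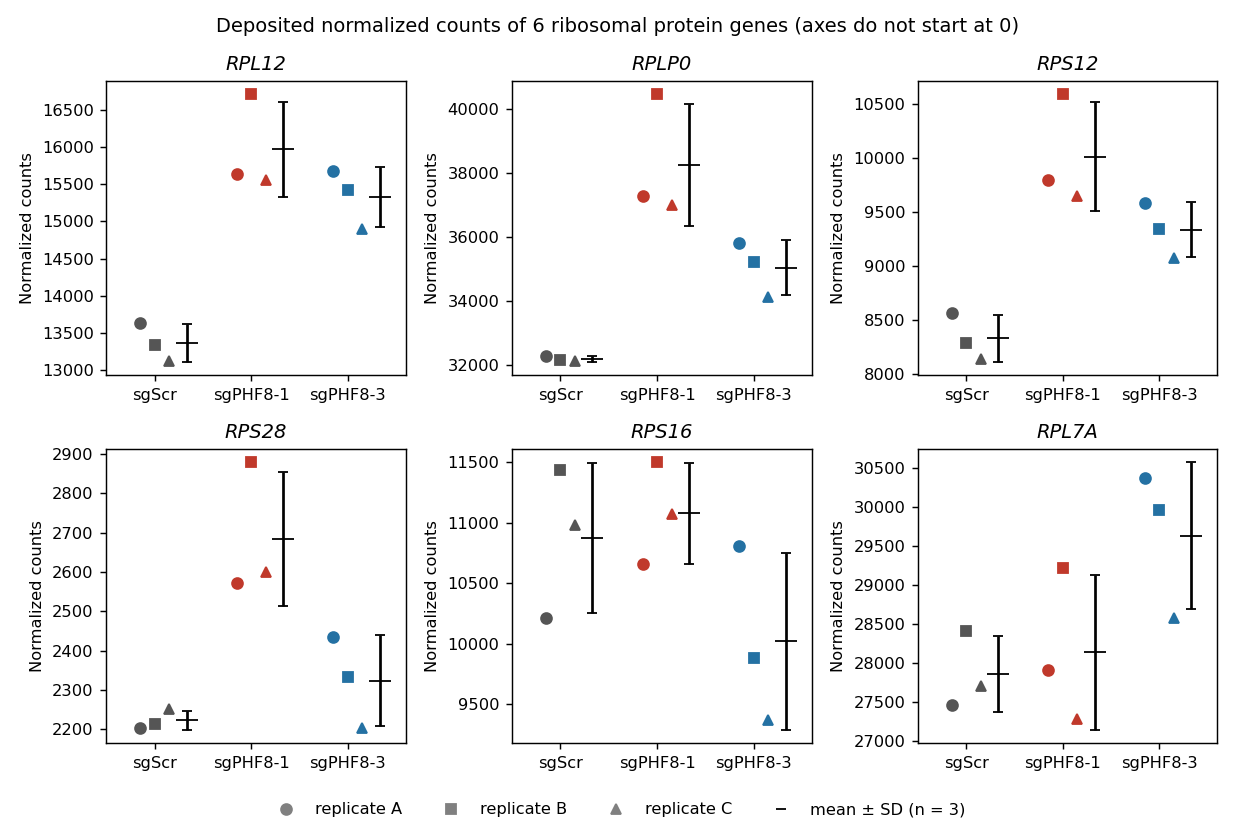
Deposited normalized counts (vertical axes, which do not start at 0) of 6 genes in each library, by guide; points are libraries and bars the mean ± SD of 3. RPL12, RPLP0 and RPS12 rise with both guides, RPS28 sits at 2571 to 2879 with sgPHF8-1, RPS16 falls to between 9368 and 10812 with sgPHF8-3, and RPL7A is highest with sgPHF8-3, at 28572 to 30365.

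RPS16 was the member called lower with sgPHF8-3, and RPL7A the member called higher with sgPHF8-3 and not with sgPHF8-1. RPS16, a 40S protein near the P site (chr19:39923777-39926589, minus strand, GRCh37), had 10215, 11440 and 10979 normalized counts with sgScr, 10664, 11501 and 11075 with sgPHF8-1, and 10812, 9882 and 9368 with sgPHF8-3. Replicates B and C of sgPHF8-3 lay under all other libraries and replicate A among the controls. Its log2 fold change was -0.12 (SE 0.0418; adjusted p = 0.0469, edgeR), a call lost with DESeq2, with limma, without sgScr replicate B or C, and without sgPHF8-3 replicate B or C, where the value ranged from -0.12 to -0.07. Without both libraries that stood apart it was -0.07 (adjusted p = 0.0778).

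RPL7A, a 60S protein whose gene (chr9:136215073-136218281, plus strand, GRCh37) holds 4 snoRNA genes, had 27465, 28405 and 27703 normalized counts with sgScr, 27905, 29221 and 27275 with sgPHF8-1, and 30365, 29960 and 28572 with sgPHF8-3. Its sgPHF8-3 libraries were all above the sgScr libraries, and its sgPHF8-1 libraries overlapped them. The log2 fold change was 0.09 (SE 0.0299; adjusted p = 0.0368, edgeR) with sgPHF8-3 and 0.01 (SE 0.0299; adjusted p = 0.780) with sgPHF8-1, and the difference between the guides, -0.08, did not pass (adjusted p = 0.114). RPL35, a protein at the 60S exit tunnel, was named after its values were seen. It had 14582, 14686 and 14520 with sgScr, 14461, 15717 and 14249 with sgPHF8-1, and 16057, 15748 and 14777 with sgPHF8-3, with fold changes of 0.02 and 0.09 (adjusted p = 0.705 and 0.0647).

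Set directly against each other, the guides differed in 21 members, all higher with sgPHF8-1, and 0 were lower (edgeR). Over all genes 4.74% were higher and 5.83% lower. At an unadjusted p under 0.05, 47 members were higher and 1 was lower, and DESeq2 and limma called 19 and 18 higher and 0 lower. The median over the members was 0.08, 28 members had all sgPHF8-1 libraries above all sgPHF8-3 libraries against 12.4% of all genes, and the calls were split into 11 60S and 10 40S genes, 16 of them with a TOP tract. RPS28, a small 40S protein at the mRNA exit (chr19:8386042-8388224, plus strand, GRCh37), differed most among the members called. It had 2204, 2215 and 2251 normalized counts with sgScr, 2571, 2879 and 2599 with sgPHF8-1, and 2435, 2332 and 2204 with sgPHF8-3. All sgPHF8-1 libraries were above the others, and the sgPHF8-3 libraries overlapped sgScr. The change was 0.27 (SE 0.0395; adjusted p = 6.85e-06) with sgPHF8-1 and 0.06 (SE 0.0399; adjusted p = 0.282) with sgPHF8-3, a difference of 0.21 (SE 0.0396; adjusted p = 0.00106).

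The count of members that differed between the guides depended on single libraries. Without sgPHF8-3 replicate C it was 5 (6.41% of members, against 2.75% of all genes), without sgPHF8-3 replicate B 8 (10.3% against 2.57%), without sgPHF8-1 replicate B 11 (14.1% against 4.36%), and without sgPHF8-3 replicate A 32 (41% against 4.41%), where it was 21 (26.9% against 4.74%) with all libraries. Without both replicate B of sgPHF8-1 and replicate C of sgPHF8-3, 5 members were higher with sgPHF8-1 (3.9% of all genes) and 2 lower (5.12% of all genes), and the median fell to 0.02. The 5 were RPS28 at 0.12, RPS2 at 0.08, RPS27 at 0.08, RPS19 at 0.07 and RPLP0 at 0.07 (adjusted p from 0.0190 to 0.0348, edgeR). The 2 lower were RPL35 at -0.14 and RPL7A at -0.12 (adjusted p = 2.15e-05 and 5.54e-05). In the remaining libraries the medians against sgScr were 0.12 with sgPHF8-1 and 0.09 with sgPHF8-3.

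Against sgScr, leaving out those libraries changed the calls with sgPHF8-3 more than those with sgPHF8-1. The mean share of counts was then 5.75% with sgPHF8-1 and 5.69% with sgPHF8-3 (n = 2 each), against 5.36% with sgScr. Of the 60S genes 36 were called higher with either guide (medians 0.12 and 0.11), and of the 40S genes 27 with sgPHF8-1 and 25 with sgPHF8-3 (medians 0.12 and 0.09). The 47 members with a TOP tract held 37 and 34 of these calls. RPL12 was higher by 0.23 and 0.22, RPS12 by 0.23 and 0.18, RPLP0 by 0.21 and 0.14, RPSA by 0.17 and 0.18, and RPL5 by 0.12 and 0.15 with sgPHF8-1 and sgPHF8-3, all of them called. With sgPHF8-3 RPS28 (0.10), RPL11 (0.07), RPS18 (0.06), RPL3 (0.07) and RPL35 (0.12) passed, at adjusted p of 0.0209, 0.0133, 0.0168, 0.0217 and 1.81e-05 (edgeR). RPS19 (0.05), FAU (0.07), RPS4X (0.05), RPLP2 (0.05), RPL10 (0.03), RPLP1 (0.02) and RPL39 (0.01) still did not pass with sgPHF8-3, at adjusted p of 0.0619, 0.0838, 0.0530, 0.156, 0.344, 0.649 and 0.916.

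Genes that work beside the ribosomal proteins were counted in the same fit. Of the 74 mitochondrial ribosomal protein genes, whose products form the separate ribosome of that organelle, 43 were higher and 0 lower with sgPHF8-1 (median 0.14), and 23 were higher and 0 lower with sgPHF8-3 (median 0.09), where 15.2% and 9.48% of all genes were called higher. MRPL40, MRPL55 and MRPL20 rose by 0.33, 0.30 and 0.29 with sgPHF8-1 (adjusted p = 3.90e-05, 0.000496 and 7.70e-07, edgeR), and MRPS9, MRPS18B and MRPL11 by 0.24, 0.23 and 0.20 with sgPHF8-3 (adjusted p = 0.000581, 0.000644 and 0.00197). These genes took 0.441%, 0.478% and 0.469% of counts on average with sgScr, sgPHF8-1 and sgPHF8-3, and 3 of the 74 were called higher with sgPHF8-1 than with sgPHF8-3, a share near the 4.74% of all genes: MRPL40 (0.22), MRPS12 (0.21) and MRPL28 (0.14; adjusted p = 0.00909, 0.0115 and 0.0237, edgeR). DESeq2 called 33 and 10 of them higher with sgPHF8-1 and sgPHF8-3, and limma 41 and 23. Whether this list and the members differ was not tested.

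Of 23 translation factors and other RNAs of the TOP class 22 were tested. Among these 16 rose with sgPHF8-1 (median 0.15) and 12 with sgPHF8-3 (median 0.10), with 0 lower in either. Over all genes tested 15.2% and 9.48% were called higher. In this list and the mitochondrial one, 0 genes were lower than with sgScr at an unadjusted p under 0.05, and 0 were called lower by DESeq2 or limma. The largest changes were in noncoding host RNAs of snoRNAs: SNHG5 rose by 0.43 and 0.27 (adjusted p = 2.17e-10 and 1.62e-06, edgeR), SNHG1 by 0.33 and 0.19 (adjusted p = 1.71e-07 and 0.000684), and GAS5 by 0.29 and 0.22 (adjusted p = 1.63e-06 and 0.000253). SNHG5 had 4130, 3853 and 3856 normalized counts with sgScr, 5395, 5393 and 5116 with sgPHF8-1, and 4877, 4762 and 4630 with sgPHF8-3, and the groups did not overlap. Between the guides SNHG5, SNHG1 and SNHG6 were higher with sgPHF8-1 by 0.16, 0.14 and 0.11 (adjusted p = 0.00288, 0.0178 and 0.0450). EEF2, the translocation factor, rose by 0.23 and 0.12 (adjusted p = 1.66e-07 and 0.00146).

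All 6 related genes outside the rule were higher with sgPHF8-1 (median 0.19) and 3 with sgPHF8-3 (median 0.10). Over all genes tested 15.2% and 9.48% were called higher. DESeq2 called 5 and 2 of the 6 higher, and limma 6 and 3. RPL22L1, the paralog of RPL22, rose by 0.20 and 0.23 (adjusted p = 5.76e-05 and 2.63e-05, edgeR). RPL22 itself had 0.06 with either guide (adjusted p = 0.194 and 0.178). Without both libraries that stood apart RPL22 passed with sgPHF8-3 (0.08; adjusted p = 0.0448, edgeR) and not with sgPHF8-1 (0.05; adjusted p = 0.228). Whether RPL22 and RPL22L1 differ was not tested. RPS27L, a paralog of RPS27 known as a p53 target, rose by 0.22 with sgPHF8-1 (adjusted p = 4.59e-06), had -0.06 with sgPHF8-3 (adjusted p = 0.194), and differed between the guides by 0.29 (adjusted p = 1.18e-06). RPL7L1 rose by 0.20 and 0.15 (adjusted p = 5.49e-06 and 0.000533), and RPL26L1 by 0.18 with sgPHF8-3 (adjusted p = 0.0218). RPL36AL was higher with sgPHF8-1 than with sgPHF8-3 by 0.17 (adjusted p = 0.00344).

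Of 20 regulators of the TOP class, 4 were higher and 1 lower with sgPHF8-1 (median 0.01), and 2 higher and 0 lower with sgPHF8-3 (median 0.04), where 15.2% and 9.48% of all genes were called higher. MYC, a transcription factor that drives ribosome production, rose by 0.21 and 0.27 (adjusted p = 0.00106 and 0.000192, edgeR), and EIF4EBP1, a translation repressor under mTORC1, by 0.24 and 0.19 (adjusted p = 1.14e-05 and 0.000565). RHEB, the GTPase that activates mTORC1, rose by 0.16 with sgPHF8-1 (adjusted p = 0.00314). TSC1, an inhibitor of mTORC1, fell by 0.13 on the log2 scale with sgPHF8-1 (adjusted p = 0.0222, edgeR). Its difference from sgPHF8-3 was -0.14 (adjusted p = 0.0475, edgeR). DESeq2 made neither call. At an unadjusted p under 0.05, 3 regulators were lower with sgPHF8-3 by edgeR and by limma, and 0 by DESeq2. Of 12 chaperones and importers of ribosomal proteins 6 were higher with sgPHF8-1 and 2 with sgPHF8-3 (edgeR). DESeq2 called 4 and 3 higher, and limma 5 and 2. With either guide 0 were lower, also at an unadjusted p under 0.05 and by DESeq2 and limma. PDCD2L rose by 0.39 with sgPHF8-1 (adjusted p = 0.00220, edgeR) and had 0.23 with sgPHF8-3 (adjusted p = 0.0943). BCCIP, which accompanies RPL23, rose by 0.29 and 0.17 (adjusted p = 9.64e-08 and 0.000311). It differed between the guides by 0.11 (adjusted p = 0.0208, edgeR), a call not made by DESeq2. The importer TNPO1 rose by 0.17 and 0.16 (adjusted p = 6.15e-05 and 0.00026).

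**Figure D5:**
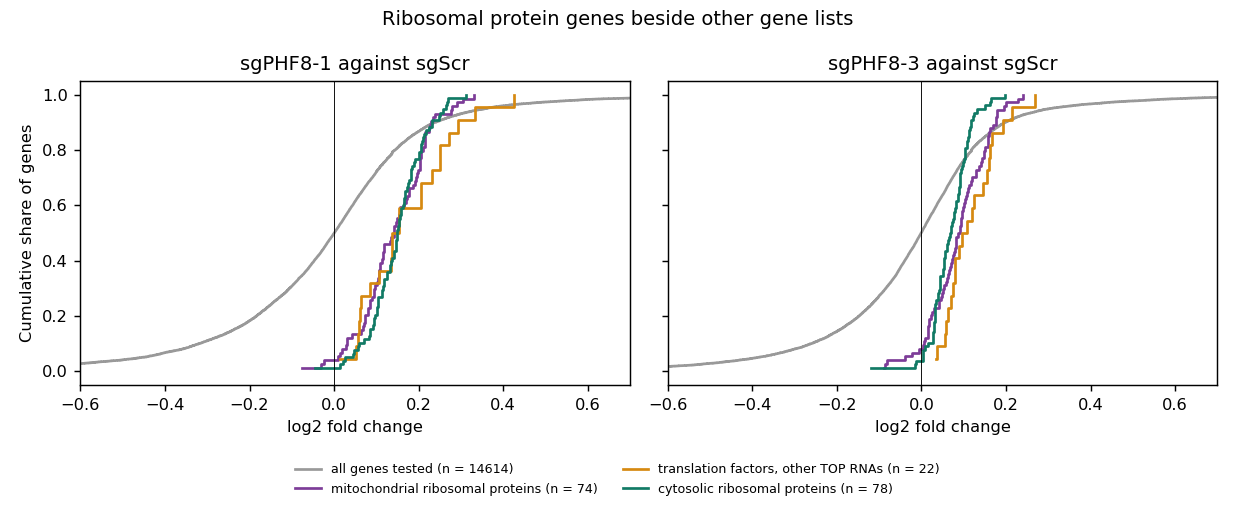
Cumulative share of genes (vertical axis) by log2 fold change (horizontal axis) for all 14614 genes tested and 3 lists, with sgPHF8-1 on the left and sgPHF8-3 on the right. The curves of the cytosolic ribosomal proteins cross the middle at 0.15 and 0.07, those of the mitochondrial ones at 0.14 and 0.09, and those of all genes at 0.00.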

How the data were processed

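RNA from 9 SKMEL-147 libraries (3 guides, 3 libraries each) was depleted of rRNA and sequenced as paired ends. The authors aligned reads with STAR to hg19 and counted them with HTSeq; strand setting and annotation release are not given in the sources used here. They deposited raw counts by Ensembl ID and a normalized signal by symbol, raw counts divided by a DESeq2 size factor. Dividing back gave whole reads within 0.01 for 100% of values, and both deposited tables held the same counts. Symbols were paired with IDs by identical counts over the 9 libraries or by gene name, and all 78 tested members were paired. Replicate files differed by more than sampling noise.

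Raw counts were fitted with edgeR 4.0.16 (R 4.3.3; TMM scaling, filterByExpr over the 3 groups, quasi-likelihood F test) on all genes and 3 contrasts, adjusted over all genes tested by Benjamini-Hochberg and called under 0.05. The script was tested on simulated data. DESeq2 1.42.0, limma 3.58.1 on log2(normalized counts + 1), other scalings and filters, a replicate block, the threshold of the study's methods and leaving out each library were alternatives. Leaving out both libraries that stood apart was added after seeing the data. The members and lists were chosen with earlier results of these data known. Named members were drawn from the 10 called with the largest fold change in each comparison. Others have a known separate role or paralog, are among the 3 most or 3 least counted, or failed the filter. Some were named after their values were seen. In the lists, most genes named were among the 3 largest calls of a comparison. Coordinates of genes come from GENCODE on GRCh37. No length-scaled level was computed, so levels are not compared between genes. Some genes are counted but not reported by name.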

Additional observations from a re-analysis of the deposited data

Results flagged for a closer look

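In 21 members the test of one PHF8 guide directly against the other passed an adjusted p of 0.05 (edgeR), so that their changes differed between the guides, each higher with sgPHF8-1. As log2 differences, sgPHF8-1 minus sgPHF8-3, 20 of these were 40S genes at 0.21 (RPS28), 0.15 (RPS26), 0.15 (RPS27), 0.14 (RPS16), 0.14 (RPS19), 0.13 (RPS2), 0.13 (RPS18), 0.12 (FAU) and 0.10 (RPS21), and 60S genes at 0.17 (RPL26), 0.14 (RPL28), 0.13 (RPLP0), 0.12 (RPLP1), 0.12 (RPL21), 0.12 (RPL36), 0.12 (RPL24), 0.12 (RPL13A), 0.11 (RPL13), 0.10 (RPL27A) and 0.10 (RPL23). All but RPS16 had also been called higher with sgPHF8-1 against sgScr. Both tests use the same sgPHF8-1 libraries, and 64 of the 78 members were called there, so this overlap is not an independent result. Without sgPHF8-1 replicate B and sgPHF8-3 replicate C, 5 of the differences passed.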

How the results depend on the processing

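Over all alternatives 87 counts of members stayed within 1.5 times the reported count and 27 did not, 56 medians and shares moved by less than 1 SD between libraries and 4 by more, and the change of PHF8 kept direction and side of the threshold in 49 and lost its call in 5. For single genes 1593 fold changes kept their direction and side of the threshold, 83 lost a call, 27 gained one and 25 changed sign, none of the 25 a called value. Without both libraries that stood apart the changed signs were RPL28 at 0.0213 and RPL39 at 0.00611 with sgPHF8-3, and RPL3 at -0.0151, RPL5 at -0.0229, RPSA at -0.00575, RPL39 at -0.00433 and RPL36A at 0.189 between the guides. With no low count filter RPL10 was at -0.00241 with sgPHF8-3. Leaving out single libraries changed the sign with sgPHF8-1 of RPS16 (-0.0203 to 0.0643), RPL39L (-0.129 to 0.0526) and RPL36A (-0.0111 to 0.304), with sgPHF8-3 of RPL28 (-0.0617 to 0.0215), RPLP1 (-0.0245 to 0.0283), RPL10 (-0.0290 to 0.0343), RPL39L (-0.0388 to 0.0816) and RPL39 (-0.0391 to 0.00632), and between the guides of RPL39L (-0.162 to 0.0202) and RPL36A (-0.162 to 0.153). At the threshold of the study's methods 6 members were higher with sgPHF8-1, 0 higher and 0 lower with sgPHF8-3, and 0 higher with sgPHF8-1 against sgPHF8-3. With DESeq2 and limma 0 members were lower with sgPHF8-3, and the change of PHF8 with sgPHF8-1 was -0.16 with DESeq2, no longer past the threshold. With library totals 1 member was lower with sgPHF8-1 than with sgPHF8-3, and with both groups fitted alone 11 were higher. Leaving out the 3 most counted members gave shares of 4.81% (sgScr), 5.23% (sgPHF8-1) and 5.03% (sgPHF8-3). Leaving out both libraries that stood apart, chosen after seeing the data, gave 61 higher and 0 lower with sgPHF8-3, and 5 higher, 2 lower and a median log2 fold change of 0.0233 for sgPHF8-1 against sgPHF8-3. The causes were not tested. Leaving out each library in turn gave 55 to 69 members higher with sgPHF8-1, 7 to 34 higher and 0 to 1 lower with sgPHF8-3, and 5 to 32 higher and 0 to 2 lower between the guides. In the same fits 11.7% to 15.4%, 6.01% to 11.6% and 2.57% to 4.45% of all genes were higher. PHF8 ranged from -0.19 to -0.13 with sgPHF8-1, its call lost without sgScr replicate A or C or sgPHF8-1 replicate A or C, and from -0.68 to -0.60 with sgPHF8-3. A replicate block by library letter gave 67, 25 and 24 members higher in the 3 comparisons. Correlations of same-letter deviations ran from -0.0829 to 0.0527, and those of different letters from -0.0836 to 0.143. They cannot settle whether the letters mark a shared batch. The block moved no count of members by over 1.5 times. Precision is limited by 3 libraries a group, and for members with few counts by depth.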
